A study of Mus musculus with 12 samples.

Results

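The genes described here encode the proteasome, the protease that breaks down most ubiquitin-tagged proteins of the cell. They are the 44 genes, of 14188 protein-coding genes with an expression value, whose GENCODE M21 symbol is Psma, Psmb, Psmc, Psmd or Psme followed by a digit. The rule used the symbol and no measured value, and it took 75 of the 29876 transcripts that matched the annotation. A further gene of the pattern, Psmb11 (the thymus-specific catalytic subunit), is annotated but not listed in the expression table. Another, Psmc3ip, has a matching symbol but encodes a meiotic recombination factor and not a proteasome subunit.

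Strand-specific libraries were sequenced from livers of 12 mice, 6 given PZH and 6 controls, after removal of ribosomal RNA. Both groups received CCl4, a solvent that injures hepatocytes and leads to fibrosis, as 2 intraperitoneal injections per week. The PZH group was also given Pien Tze Huang (PZH), a traditional Chinese medicine, into the stomach daily, and the control group was given water in its place. The mice were C57BL/6J males by the study's methods, whereas the sample labels give the strain as C57BL/8. Each value comes from whole liver of 1 animal, and livers of mice without CCl4 were not analysed here, so every difference below is PZH with CCl4 against CCl4 alone.

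The proteasome has a barrel-shaped 20S core made of an outer pair of alpha rings, which gate the entry, and an inner pair of beta rings, which hold the catalytic sites of Psmb5, Psmb6 and Psmb7. The 19S regulatory particle caps the core, and its ATPases (Psmc) unfold substrates while its non-ATPase subunits (Psmd) bind ubiquitin and remove it. Interferon induces Psmb8, Psmb9 and Psmb10, which take the places of Psmb5, Psmb6 and Psmb7 in newly built particles, the immunoproteasome, and which favour peptides that MHC class I can present. In mammalian cells the transcription factor Nfe2l1 (Nrf1) raises the constitutive subunits together when proteasome activity falls short.

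The total FPKM (fragments scaled to transcript length and to the number mapped in the library) of the protein-coding table was 325302 to 370426 per mouse, and the depth estimated from the spacing of low FPKM values was 26.9 to 42.9 M fragments, with the highest value in mouse PZH 1. The 10 most abundant genes held 22.1% to 26.1% of the FPKM in PZH mice and a smaller share, from 18.2% upwards, in every control mouse. On a scale with a fixed sum, a larger share for a few genes would leave less for the rest, and the part of this in the values below was not tested. The median gene was lower in PZH mice by 0.11 on the log2(FPKM + 1) scale, so each difference below is to be read against that shift. With an equal sum of FPKM per mouse the median difference of all genes was -0.14. Values after median-ratio scaling, which sets the typical gene equal between mice, are given for many of the genes described but not for all. Hepatocyte markers (Alb, Ttr, Apoa1, Apob, Cps1, Tat and Hnf4a) summed to 41061 to 57231 FPKM in PZH mice and 23274 to 36679 FPKM in control mice. All 7 were listed, none was at 0 in any mouse, and 3 were called higher and 1 lower. Alb alone held most of these sums, at 33360 to 46362 FPKM in PZH mice and 18015 to 29477 FPKM in control mice. Cps1 and Ttr were also higher, Hnf4a was lower, and Apoa1, Apob and Tat were not called. After median-ratio scaling 6 were higher and 0 lower. In whole tissue, fewer cells of a type and less RNA per cell cannot be told apart.

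In PZH mice 12 of the 17 genes of the regulatory particle and 6 of the 15 constitutive core genes were called lower, none of the 3 immunoproteasome genes was called in either direction, and no member was called higher. With limma on log2(FPKM + 1) and Benjamini-Hochberg adjustment over all genes, 22 of the 44 members fell at an adjusted p under 0.05 and 0 rose, where 32.1% of all genes were called lower and 12.7% higher, and 37.8% of the genes with a mean FPKM of at least 1 were lower. The members called fell by 0.18 to 0.65 on the log2 scale, and 42 of the 44 had a negative estimate. The median of the members was -0.24, beside -0.11 for all genes and -0.17 for the 10948 genes with a mean FPKM of at least 1, a level that 42 of the members reach. By the criteria of a 2-fold change with an unadjusted P under 0.05, 0 members were called, against 2.50% of all genes lower and 1.52% higher. For 6 members (Psmb5, Psmc5, Psmd3, Psmd4, Psme3 and Psme4) the values of the 6 PZH mice all lay below those of the 6 control mice, which was true of 17.9% of all genes, and for 0 members they all lay above, which was true of 6.46%. The share of members without overlap was therefore no larger than that of all genes.

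**Figure D1:**
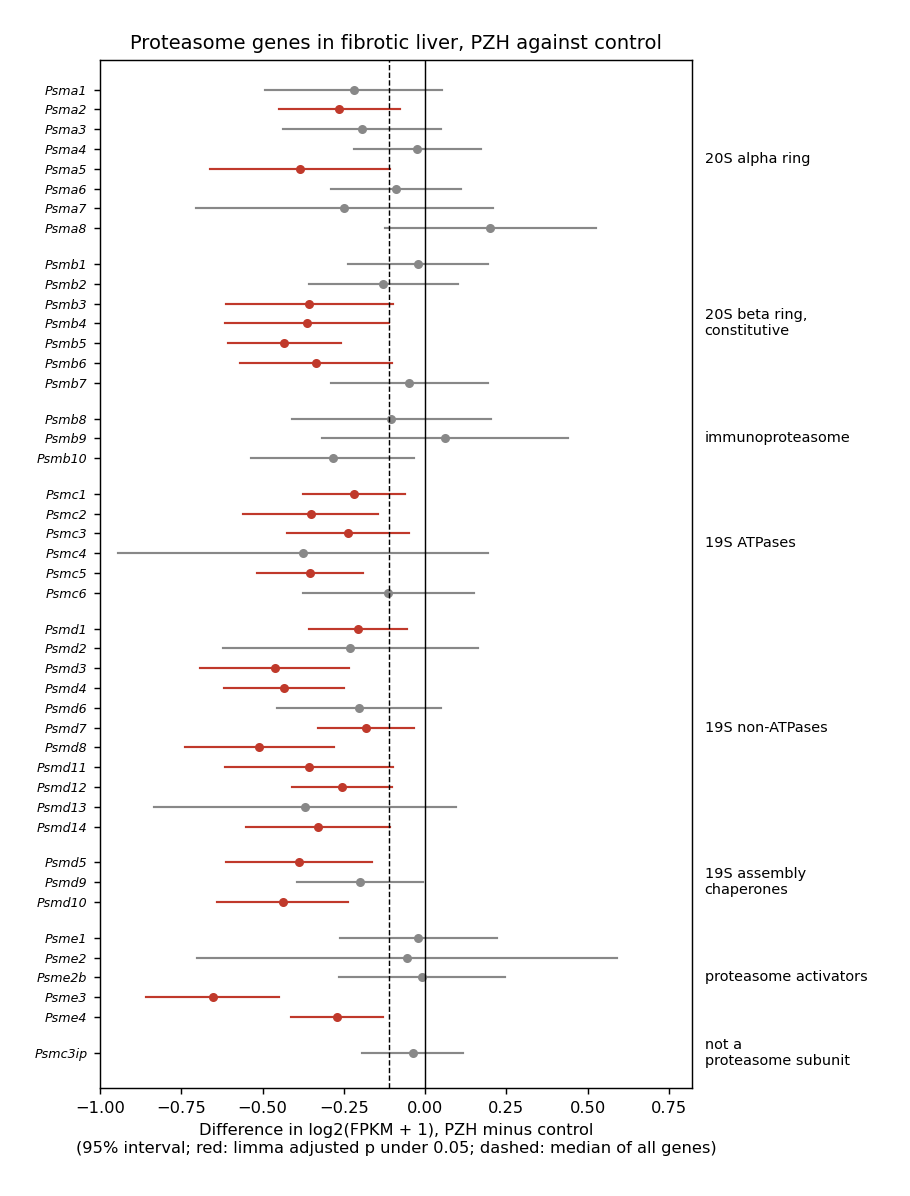
Difference in log2(FPKM + 1) between the PZH and control groups (x axis, PZH minus control) for the 44 genes, grouped by place in the particle, with 95% intervals from limma and 6 mice per group. Red marks the 22 genes with an adjusted p under 0.05, all of them left of 0, and the dashed line is the median of all genes at -0.11.

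After median-ratio scaling 5 members were lower (Psmb5, Psmd3, Psmd4, Psmd8 and Psme3) and 0 higher, against 19.3% of all genes lower and 19.8% higher. The members' median was then -0.06 and that of all genes -0.001. The share of higher calls among all genes called moved from 28.3% to 50.6% with this scaling. Estimates of 11 members that were negative, Psmd7 and Psmb8 among them, became positive. The other 17 of the 22 genes called lower were not called on this scale. With each mouse left out in turn, 12 of the 22 were called every time (Psmb5, Psmc2, Psmc5, Psmd3, Psmd4, Psmd5, Psmd8, Psmd10, Psmd12, Psmd14, Psme3 and Psme4), and the other 10 lost the call at least once.

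**Figure D2:**
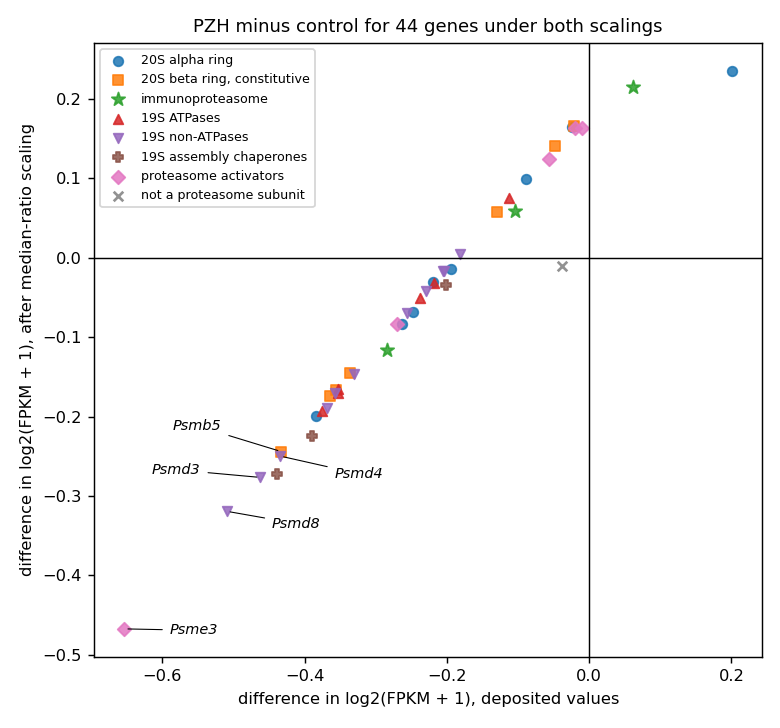
Each point is 1 of the 44 genes, with its PZH minus control difference in log2(FPKM + 1) from the deposited values on the x axis and after median-ratio scaling on the y axis, and the symbol gives the subunit class. The points lie near a line shifted upwards, and the 5 genes lower on both scales are named, with Psme3 farthest from 0 at -0.65 and -0.47.

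Mouse PZH 1 stood apart from its group for these genes. It had the highest value of the PZH mice in 32 of the 44 members, against 21.4% of all genes, and was at or above the control median in 26 members. Mouse control 6 had the highest control value in 33 of the 44 members, against 21.7% of all genes. The constitutive 20S core genes summed to 757 FPKM in PZH 1 and to 510 to 555 FPKM in the other 5 PZH mice. They summed to 816 FPKM in control 6 and to 629 to 668 FPKM in the other 5 control mice. Without PZH 1, 25 members were lower and 23 did not overlap, against 20.7% of all genes without overlap in that direction. Without control 6, 14 members were lower, and without both mice 24 were, of which 21 were among the original 22. PZH 1 also had the highest depth as estimated from the spacing of low FPKM values. Depth was not measured directly, and its part in these values was not tested.

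Of the 8 alpha ring genes, 2 were called lower and 0 higher, a share of 25% beside 32.1% of all genes. The count was 0 without control 6 and 4 without PZH 1. The median difference was -0.21. After median-ratio scaling 0 were called, beside 19.3% of all genes lower and 19.8% higher, and the median was -0.02. Psma5 ranged from 19.7 to 33.1 FPKM (median 21.1) in PZH mice and from 24.3 to 35.5 FPKM (median 29.7) in control mice, and the groups overlapped through PZH 1. It fell by 0.38 on the log2 scale (SE 0.13, limma adjusted p = 0.0266), with an adjusted p of 0.286 after median-ratio scaling, and lost the call in 6 of the 12 fits that left out a mouse. Of the 75-base words of its transcript, 39.8% also occur in transcripts of other genes, chiefly Gm8394 and Gm12989. Psma2 lay at 11.7 to 17.6 FPKM (median 12.4) in PZH mice and at 15.4 to 16.9 FPKM (median 15.7) in control mice. Its highest PZH value, that of PZH 1, was above every control value, and the difference was -0.26 (SE 0.09, adjusted p = 0.0243, and 0.569 after median-ratio scaling). Psma4 and Psma6 were close to equal, with differences of -0.02 and -0.09. Psma8, the testis form that takes the place of Psma7, had a mean of 0.311 FPKM over the 12 mice and was listed at 0 in 3 control mice, and its difference of 0.20 did not pass the test (adjusted p = 0.303).

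The constitutive beta ring had 4 of 7 genes lower and 0 higher, with a median difference of -0.34 (-0.15 after median-ratio scaling), where 32.1% of all genes were lower. The genes called were Psmb3, Psmb4, Psmb5 and Psmb6, and without PZH 4 Psmb5 was the 1 still called. Psmb5, which carries the chymotrypsin-like activity, had 37.8 to 47.3 FPKM (median 40.2) in PZH mice and 49.6 to 67.4 FPKM (median 53.3) in control mice. Every PZH mouse was below every control mouse, although PZH 1 was the highest of its group and control 6 of the other. Psmb5 fell by 0.43 (SE 0.08, adjusted p = 0.000854), and it was still lower after median-ratio scaling (-0.24, adjusted p = 0.0401). About 40.0% of the 75-base words of its main transcript also occur in a transcript of another gene, chiefly Gm3375, so part of its reads may be shared. The share was 33.1% for Psmb3 and 24.1% for Psmb7, the latter with Nek6. Psmb6, the subunit with caspase-like activity and the most abundant member by FPKM, had 73.1 to 109 FPKM (median 81.5) in PZH mice and 96.3 to 139 FPKM (median 102) in control mice. Only PZH 1 reached the control range, and Psmb6 fell by 0.34 (SE 0.11, adjusted p = 0.0224, and 0.343 after median-ratio scaling). Psmb7, with the trypsin-like activity, had medians of 45.5 and 49.8 FPKM in the PZH and control groups, and its ranges of 42.3 to 67.0 and 42.6 to 59.8 FPKM overlapped almost wholly. Its difference was -0.05 (95% interval -0.29 to 0.19, adjusted p = 0.758). Psmb4, a structural subunit, had 44.6 to 69.1 FPKM (median 53.1) against 61.8 to 94.4 FPKM (median 67.7) and fell by 0.36 (SE 0.12, adjusted p = 0.0227, and 0.278 after median-ratio scaling). Psmb1 differed by -0.02. Differences between the catalytic subunits were not tested.

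The promoters of Psmb5 and Psmb6 are shown because both genes fell and both windows hold TGACNNNGC, the core of the antioxidant response element that Nfe2l1 and Nfe2l2 bind. The stretches are from the RefSeq windows on GRCm38.p6, from 250 bases before to 50 after each gene's RefSeq start, and are printed 5′ to 3′ on the strand of the gene with the matched letters in capitals. That of Psmb5 (chr14:54618023-54618075, minus strand) covers bases -80 to -28 from the start, and that of Psmb6 (chr11:70525277-70525356, plus strand) covers bases -80 to -1. The promoters of Psmd4 (chr3:95042645-95042724, minus strand, bases -110 to -31) and Psme3 (chr11:101316133-101316212, plus strand, bases -80 to -1) belong to genes that were lower on both scales. In Psmd4 the capitals mark the interferon-stimulated response element, searched as GAAA, 2 bases of any kind and GAAA, which lies on the opposite strand, and Psme3 holds none of the 3 motifs searched.
Psmb5: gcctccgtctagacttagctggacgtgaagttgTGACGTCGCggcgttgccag
Psmb6: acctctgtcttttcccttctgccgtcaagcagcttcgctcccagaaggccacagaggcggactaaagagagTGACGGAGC
Psmd4: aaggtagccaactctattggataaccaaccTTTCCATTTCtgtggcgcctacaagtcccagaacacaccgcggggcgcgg
Psme3: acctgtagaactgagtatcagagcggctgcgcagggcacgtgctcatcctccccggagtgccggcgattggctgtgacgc
RefSeq windows were given for 37 of the 44 members. On either strand TGACNNNGC occurred in 6 of these genes (Psmb5, Psmb6, Psmc6, Psmd9, Psmd12 and Psme4), and in 12.4% of all 32851 windows. Of the 6, Psmb5, Psmb6, Psmd12 and Psme4 were called lower and Psmc6 and Psmd9 were not. The interferon-stimulated response element occurred in 4 (Psmb3, Psmd4, Psmd9 and Psme1), and in 3.44% of all windows. The letters TTCNNNGAA, which read the same on both strands, occurred in 2 (Psmb8 and Psmd2), and in 8.30% of all windows. These are matches of letters and not measured binding.

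Of the 3 immunoproteasome genes 0 were called, beside 32.1% of all genes called lower and 12.7% higher. Their median difference was -0.10 (0.06 after median-ratio scaling). They were expressed far below their constitutive counterparts, together at 13.0 to 19.5 FPKM in PZH mice and 12.2 to 23.3 FPKM in control mice. Psmb8 (chromosome 17, 34197721 to 34201454) had 4.45 to 6.15 FPKM (median 4.93) in PZH mice and 4.05 to 8.95 FPKM (median 5.08) in control mice. The control range enclosed the PZH range, and the difference was -0.10 (95% interval -0.41 to 0.20, adjusted p = 0.586). Psmb9 (chromosome 17, 34181987 to 34187764) had 2.86 to 6.51 FPKM (median 3.86) against 2.62 to 5.37 FPKM (median 3.92), a difference of 0.06 (95% interval -0.32 to 0.44, adjusted p = 0.802). Its RefSeq start lies 226 bases from that of Tap1, the peptide transporter gene on the opposite strand, and 10.8% of the 75-base words of its listed transcript also occur in Tap1. Psmb10 (chromosome 8, 105935739 to 105938444) had 4.88 to 6.84 FPKM (median 6.03) in PZH mice and 5.53 to 10.1 FPKM (median 7.25) in control mice. Its difference of -0.28 (SE 0.12, adjusted p = 0.0624) did not pass the test, and it did pass when control 1 was left out and with an equal sum of FPKM per mouse. PZH 3 had the highest PZH value of all 3 genes, and control 4 the highest control value of Psmb8 and Psmb10.

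**Figure D3:**
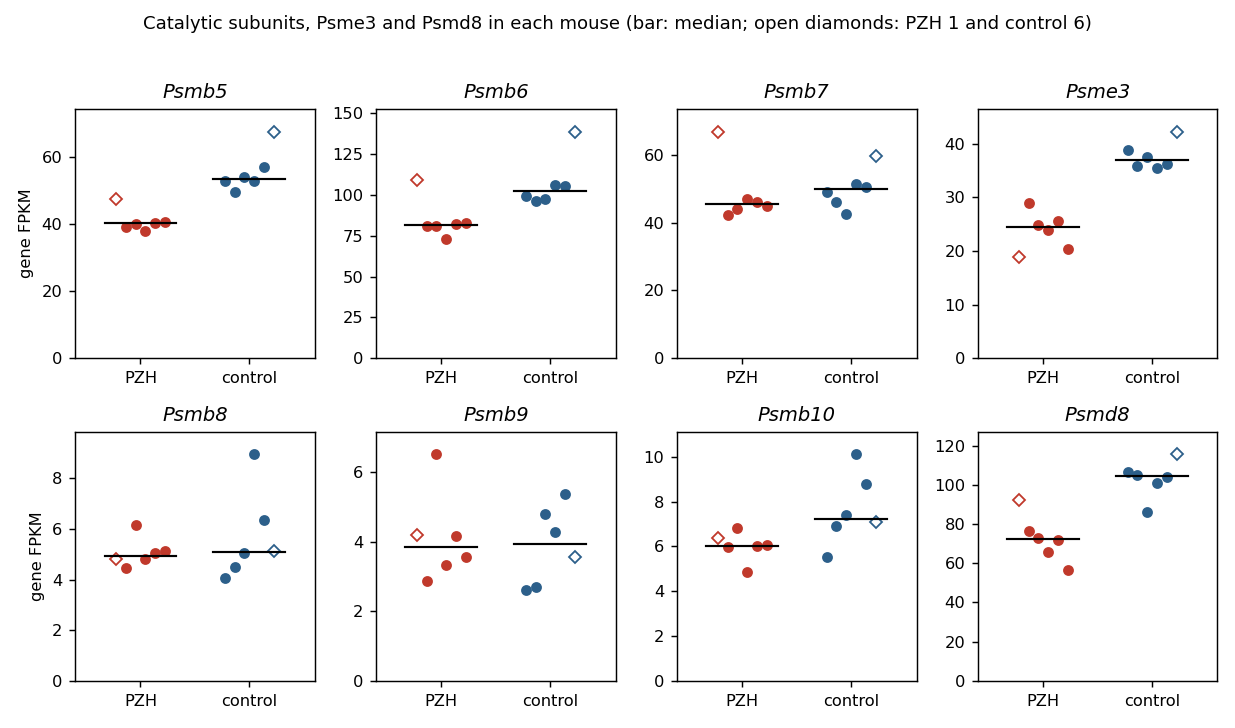
Gene FPKM (y axis, from 0) in each of the 12 mice for the constitutive catalytic subunits Psmb5, Psmb6 and Psmb7, the immunoproteasome subunits Psmb8, Psmb9 and Psmb10, and the genes Psme3 and Psmd8, with the group median as a bar and PZH 1 and control 6 as open diamonds. The groups are apart for Psmb5 and Psme3, meet at 1 mouse for Psmb6 and Psmd8, and overlap for Psmb7, Psmb8, Psmb9 and Psmb10.

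The ratio of an immunoproteasome subunit to the constitutive subunit whose place it takes does not depend on the scaling of the library. Psmb8 was 12.4% of Psmb5 by geometric mean in PZH mice and 9.90% in control mice, a difference in log2 ratio of 0.32 (SE 0.19). For Psmb9 and Psmb6 the values were 4.71% and 3.52%, a difference of 0.42 (SE 0.25). For Psmb10 and Psmb7 they were 12.5% and 15.1%, a difference of -0.27 (SE 0.17). All 6 PZH mice were above the control mean in the ratio of Psmb8 to Psmb5 and in that of Psmb9 to Psmb6, and 1 of 6 was above it in that of Psmb10 to Psmb7. None of the 3 ratios differed beyond the spread between mice (two-sided exact permutation tests over all labellings of the 12 mice, p = 0.119, 0.128 and 0.143, each 0.143 after Benjamini-Hochberg adjustment over the 3). Control 4 had the highest ratio of Psmb8 to Psmb5 of the 12 mice. Without it the difference was 0.48 (exact permutation p = 0.0087, adjusted p = 0.026). Leaving out the control mouse that most opposes a difference favours a small p, and the adjustment over the 3 ratios does not cover that choice. This p therefore cannot show a difference. With any other single mouse left out, none of the 3 ratios passed the test. Psmb8, Psmb9 and Psmb10 together made up 8.09% ± 1.37 (SD, n = 6) of the FPKM of the 6 catalytic subunits in PZH mice and 7.51% ± 1.76 (SD, n = 6) in control mice, with overlapping ranges of 6.43% to 10.6% and 5.59% to 9.98%.

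**Figure D4:**
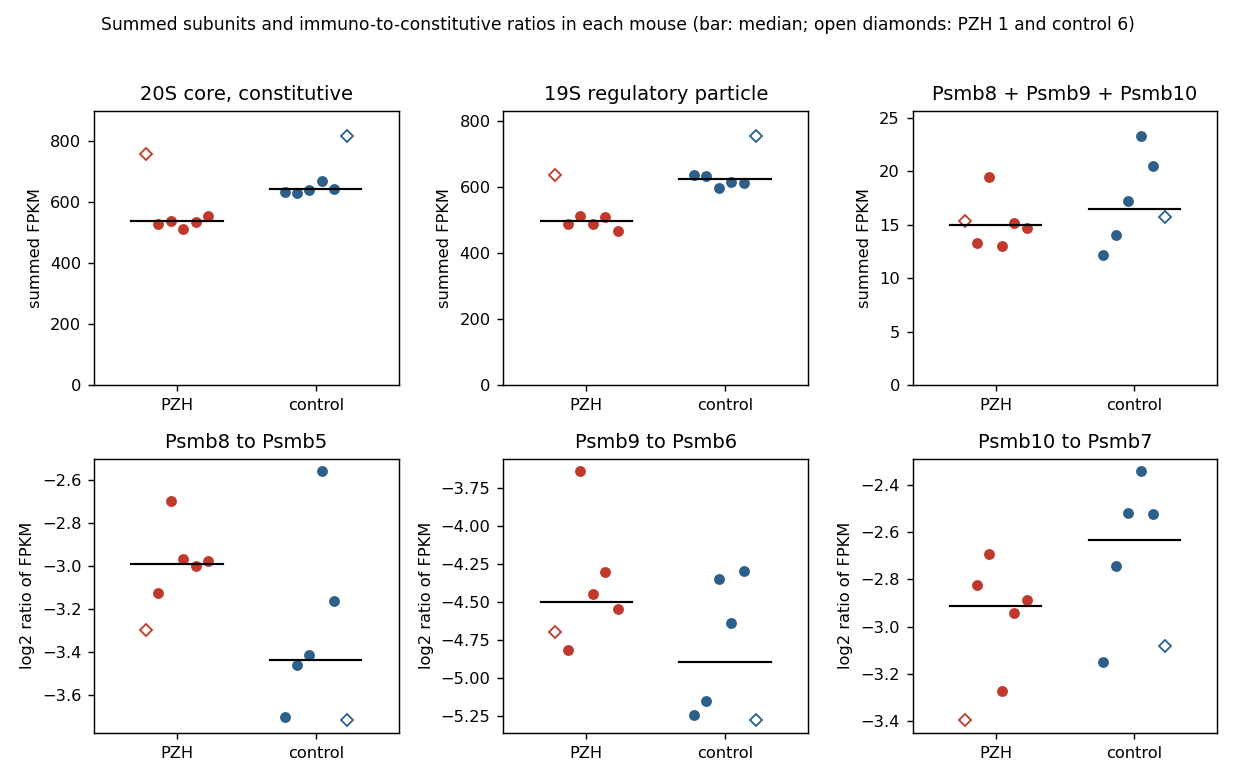
Upper row, summed FPKM (y axis, from 0) of the constitutive 20S core, of the 19S particle and of Psmb8, Psmb9 and Psmb10 in each mouse. Lower row, log2 ratio of each immunoproteasome subunit to its constitutive counterpart (y axis does not start at 0), with bars at group medians and open diamonds for PZH 1 and control 6, which reach 757 and 816 FPKM in the core sum. The 3 ratios overlap between the groups.

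Immune cells express the immunoproteasome without induction, so their markers are given beside these values. The 6 T and NK cell markers summed to 1.49 to 2.87 FPKM in PZH mice and 2.06 to 3.83 FPKM in control mice, with 0 called and all 6 above 0 in every mouse. The 4 B cell markers summed to 3.64 to 6.27 FPKM and 2.86 to 5.86 FPKM with 0 called. Of 4 dendritic cell markers 1 was higher (Cd209a), with sums of 1.24 to 2.32 FPKM and 0.634 to 1.71 FPKM and none at 0. Kupffer cell markers summed to 143 to 216 FPKM in PZH mice and 121 to 147 FPKM in control mice, with 2 of 5 higher (Clec4f and Vsig4) and none at 0. Among 6 monocyte and macrophage markers 2 were higher and 2 lower, with sums of 229 to 390 FPKM and 193 to 333 FPKM. The 4 neutrophil markers had 2 lower, with sums of 7.54 to 122 FPKM in PZH mice and 13.6 to 55.3 FPKM in control mice. Endothelial markers had 2 of 5 lower, with sums of 70.1 to 85.4 and 74.0 to 84.6 FPKM, and stellate cell markers had 2 of 6 lower and 1 higher, with sums of 85.7 to 141 and 71.3 to 121 FPKM. Cholangiocyte markers had 1 of 4 lower (Sox9), with sums of 5.40 to 7.60 and 11.9 to 18.8 FPKM, and Epcam was at 0 in 1 mouse. Sox9 alone had 2.22 to 3.42 FPKM in PZH mice and 8.64 to 13.5 FPKM in control mice, and Krt19, Krt7 and Epcam were not called. After median-ratio scaling 4 Kupffer cell, 2 B cell, 2 dendritic cell and 2 monocyte and macrophage markers were higher and 0 of these lists were lower. The T and NK cell markers again had 0 called, and the neutrophil markers 2 lower. Endothelial and cholangiocyte markers each had 1 lower and 1 higher, and stellate cell markers 2 lower and 2 higher. Of all genes 19.3% were lower and 19.8% higher on that scale. The part of these cells in the level of the immunoproteasome genes was not tested.

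The 19S regulatory particle had the most calls, with 12 of its 17 genes lower and 0 higher, beside 32.1% of all genes lower. Its median difference was -0.33. After median-ratio scaling 3 of the 17 were lower, beside 19.3% of all genes on that scale, and the median was -0.15. Its summed FPKM was 466 to 512 in 5 PZH mice and 638 in PZH 1, and 597 to 637 in 5 control mice and 756 in control 6. The sums of the groups therefore overlapped through PZH 1 only.

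Among the 6 ATPases of the base, Psmc1, Psmc2, Psmc3 and Psmc5 were lower, and Psmc4 and Psmc6 were not called. Psmc3 lost the call in 11 of the 12 fits that left out a mouse and Psmc1 in 6, and the count of ATPases called fell to 2 without control 1. Psmc5 had 14.4 to 18.6 FPKM (median 16.2) in PZH mice and 18.7 to 23.1 FPKM (median 20.8) in control mice, without overlap. It fell by 0.35 (SE 0.08, adjusted p = 0.0021, and 0.102 after median-ratio scaling). Psmc2 had 32.6 to 46.5 FPKM (median 33.4) against 41.3 to 53.9 FPKM (median 43.8), overlapping through PZH 1, and fell by 0.35 (SE 0.10, adjusted p = 0.00937, and 0.264 after median-ratio scaling). Psmc4 had an estimate of about the same size, -0.38, but spread over 9.28 to 30.1 FPKM and 13.4 to 35.6 FPKM, and it did not pass the test (SE 0.26, adjusted p = 0.27).

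Of the 11 non-ATPase subunits 8 were lower, Psmd1, Psmd3, Psmd4, Psmd7, Psmd8, Psmd11, Psmd12 and Psmd14, beside 32.1% of all genes. The median of the 11 was -0.33. Psmd7 lost the call in 10 of the 12 fits that left out a mouse, and Psmd1 in 4 of the 12. Both lost it with a pseudocount of 0.1 and with the mouse number as a block. Psmd7 also lost it with the mean-variance trend and with the filter on mean FPKM. Psmd8 (chromosome 7, 29174188 to 29180701), a lid subunit and the second most abundant member, had 56.7 to 92.4 FPKM (median 72.3) in PZH mice and 86.2 to 116 FPKM (median 104) in control mice. PZH 1 alone reached the control range, and Psmd8 fell by 0.51 (SE 0.11, adjusted p = 0.00183). Psmd3, also of the lid, had 18.4 to 26.0 FPKM (median 23.7) against 27.0 to 42.4 FPKM (median 30.9), without overlap, and fell by 0.46 (SE 0.11, adjusted p = 0.00346). The ubiquitin receptor Psmd4 fell by 0.43 (SE 0.08, adjusted p = 0.00121) without overlap. These 3 genes were lower after median-ratio scaling as well, at -0.32, -0.28 and -0.25 (adjusted p = 0.0374, 0.0303 and 0.0443). Psmd14, the deubiquitinase of the lid, fell by 0.33 (adjusted p = 0.0188, and 0.360 after median-ratio scaling), and Psmd1 by 0.21 (adjusted p = 0.0285). Psmd2, which with Psmd1 forms the scaffold of the base, had a wide spread in both groups, at 22.4 to 47.7 FPKM in PZH mice and 31.6 to 59.4 FPKM in control mice, and was not called (-0.23, adjusted p = 0.329). Without PZH 2, its lowest mouse, the difference was -0.09.

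The chaperones that assemble the base, Psmd5, Psmd9 and Psmd10, are not part of the finished particle and were expressed at a lower level than the subunits, with group medians of 4.81 to 7.20 FPKM. Of the 3, 2 were lower, beside 32.1% of all genes. Psmd10 (gankyrin) had 4.34 to 6.72 FPKM (median 4.81) in PZH mice and 6.46 to 8.36 FPKM (median 7.20) in control mice, and only PZH 1 reached the control range. It fell by 0.44 (SE 0.09, adjusted p = 0.00212), and after median-ratio scaling its adjusted p was 0.0505. Psmd5 had 4.11 to 6.38 FPKM (median 4.81) against 5.89 to 8.81 FPKM (median 6.60) and fell by 0.39 (SE 0.10, adjusted p = 0.00858, and 0.109 after median-ratio scaling). Psmd9 had an estimate of -0.20 (adjusted p = 0.0854).

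Of the 5 genes of activators that bind the ends of the core in place of the 19S particle, 2 were lower and 0 higher. This stands beside 32.1% of all genes lower, and differences between the activators were not tested. Psme3 (PA28-gamma, chromosome 11, 101316213 to 101323537), a nuclear activator, had the largest change of all members. It had 18.9 to 29.0 FPKM (median 24.4) in PZH mice and 35.4 to 42.3 FPKM (median 36.9) in control mice. The groups were well apart, and PZH 1, the highest PZH mouse for most members, was the lowest here. Psme3 fell by 0.65 (SE 0.09, adjusted p = 0.00017), by 0.47 after median-ratio scaling (adjusted p = 0.000463), and by 0.59 to 0.71 with any single mouse left out. Psme4 (PA200), also mainly nuclear, had 27.9 to 34.9 FPKM (median 31.6) against 35.9 to 41.0 FPKM (median 38.1), without overlap, and fell by 0.27 (SE 0.07, adjusted p = 0.00473). After median-ratio scaling its difference was -0.08 (adjusted p = 0.232). Psme1 and Psme2 form the interferon-induced cytoplasmic activator. Psme1 had 19.7 to 23.5 FPKM (median 21.7) in PZH mice and 15.7 to 26.6 FPKM (median 21.7) in control mice, a difference of -0.02 (95% interval -0.26 to 0.22, adjusted p = 0.901). Psme2 had 6.45 to 29.3 FPKM (median 12.5) against 11.04 to 17.9 FPKM (median 15.5), a difference of -0.06 (SE 0.30, adjusted p = 0.897). Of the 75-base words of the listed Psme2 transcripts, 51.7% and 52.8% occur in Psme2b, and 60.2% of those of Psme2b in Psme2, so the split between these genes is uncertain. With Psmb8, Psmb9 and Psmb10, Psme1 and Psme2 are the interferon-induced genes of the particle. Of these 5 genes 0 were called, beside 32.1% of all genes called lower and 12.7% higher.

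At the level of the 75 listed transcripts, 13 were lower and 1 higher in the limma fit of all transcripts, where 14.0% of all transcripts were lower and 5.73% higher. No member transcript met the criteria of a 2-fold change with an unadjusted P under 0.05. The smallest adjusted p were those of Psme3-201 (-0.65, adjusted p = 0.00089), Psmb5-201 (-0.43, adjusted p = 0.0031) and Psmc5-201 (-0.35, adjusted p = 0.00639), each the main transcript of its gene. Psmd8-207 differed more, from a control median of 20.2 to 10.1 FPKM (-0.89, SE 0.21, adjusted p = 0.0114), beside -0.43 for the more abundant Psmd8-202. The transcript that rose, Psmd5-202, is a short form of low level. It was at 0.310 to 0.817 FPKM in PZH mice and was listed at 0 in 4 control mice and at up to 0.276 FPKM in the others (0.48, SE 0.11, adjusted p = 0.0077). The main transcript Psmd5-201 moved the other way, from a median of 6.52 to 4.32 FPKM (-0.50, adjusted p = 0.00827).

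For other genes the transcripts appeared and disappeared between mice of a group. Psmd12-203 had 10.5 to 14.5 FPKM in PZH 6 and control 1, 4 and 5 and at most 0.153 FPKM in the other mice. Psmd12-201 was lowest in the same 4 mice, at 10.7 to 18.2 FPKM, against 23.2 to 30.2 FPKM in the others. The gene sum was steady, at 21.2 to 27.5 FPKM in PZH mice and 26.7 to 31.8 FPKM in control mice, and fell by 0.26 (adjusted p = 0.0109). Psme2-201 was at 17.6 FPKM in PZH 1 and 9.83 FPKM in PZH 6 and at most 0.033 FPKM in the other 10 mice, and it accounts for the wide range of the Psme2 sum. The alternation occurred within groups as well as between them. Psmc3ip, the gene of the pattern that is no subunit, was at 0.060 to 0.273 FPKM (median 0.165) in PZH mice and at 0.080 to 0.314 FPKM (median 0.186) in control mice, a difference of -0.04 (adjusted p = 0.699).

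**Figure D5:**
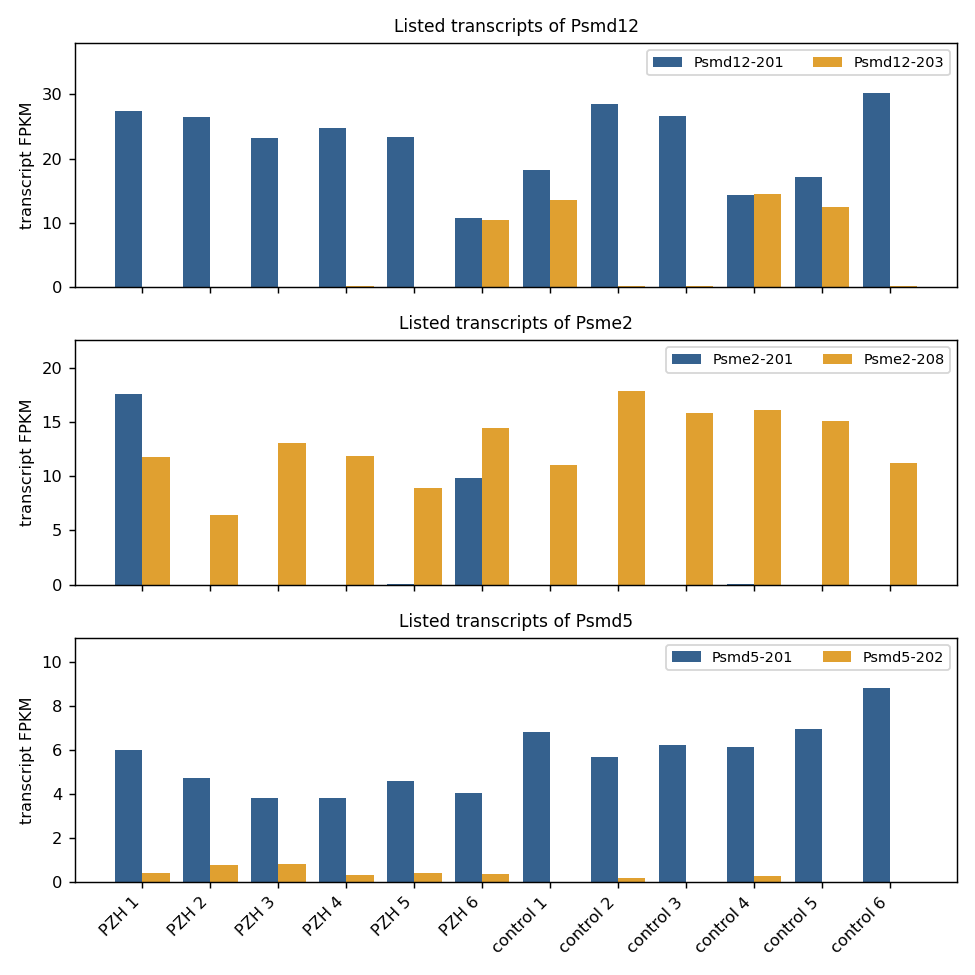
FPKM (y axis, from 0) of each listed transcript of Psmd12, Psme2 and Psmd5 in the 12 mice (x axis). Psmd12-203 is at 10.5 to 14.5 FPKM in 4 mice and near 0 in the rest, Psme2-201 is present in PZH 1 and PZH 6, and Psmd5-202 is low but above every control mouse in all 6 PZH mice.

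Genes around the proteasome were counted from lists by function. Among proteasome-associated proteins 4 of 10 were lower and 0 higher, with a median of -0.23, beside 32.1% of all genes lower. After median-ratio scaling 3 were lower, beside 19.3% of all genes on that scale, and the median was -0.05. The largest falls were those of Zfand2a (AIRAP, an arsenite-induced partner of the 19S particle, -1.62, SE 0.35, limma adjusted p = 0.00223), Adrm1 (the ubiquitin receptor Rpn13, -0.79, SE 0.12, adjusted p = 0.000233) and Akirin2 (which carries proteasomes into the nucleus, -0.38, adjusted p = 0.00208). Of 6 listed assembly chaperones and inhibitors outside the symbol rule 1 was lower, Psmg4 (-0.44, adjusted p = 0.00263), beside 32.1% of all genes. Pomp, which matures the core, was at -0.02 (adjusted p = 0.898). After median-ratio scaling Psmg4 was still lower (-0.28, adjusted p = 0.0148) and Psmg1 was higher (0.22, adjusted p = 0.0409). Paaf1 of that list was not in the table.

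In the Nfe2l1 pathway list 5 of 11 genes were lower and 0 higher, beside 32.1% of all genes lower. After median-ratio scaling 3 were lower and 1 higher, beside 19.3% and 19.8% of all genes. Of the small Maf proteins, which pair with Nfe2l1 on DNA, Maff fell by 1.62 (SE 0.24, adjusted p = 0.000217) and Mafk by 0.95 (adjusted p = 0.000227), while Mafg had an estimate of 0.16 that did not pass the test (adjusted p = 0.306) and was called higher after median-ratio scaling (0.34, adjusted p = 0.0265). Syvn1 (Hrd1), the ligase of the endoplasmic reticulum that turns Nfe2l1 over, fell by 1.38 (SE 0.18, adjusted p = 0.000102). Nfe2l1 itself had 4.36 to 8.34 FPKM (median 6.57) in PZH mice and 6.11 to 11.8 FPKM (median 9.39) in control mice, and its difference of -0.39 did not pass the test (SE 0.16, adjusted p = 0.0647).

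The ubiquitin genes and shuttle factors, which supply and deliver substrates, had 8 of 14 lower and 0 higher, with a median of -0.31, beside 32.1% of all genes lower. Sqstm1 (p62), an autophagy receptor for ubiquitin, had 122 to 149 FPKM (median 132) in PZH mice and 255 to 520 FPKM (median 364) in control mice. It fell by 1.42 (SE 0.13, adjusted p = 1.56e-05) without overlap. Ubqln4, a shuttle factor, fell by 0.90 (adjusted p = 2.49e-05) and the co-chaperone Bag3 by 0.87 (adjusted p = 0.000404). These falls were larger than that of any proteasome gene, and all 3 genes were lower after median-ratio scaling. The list then had 5 lower and 1 higher, against 19.3% of all genes lower and 19.8% higher.

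Of 12 genes of MHC class I antigen processing 5 were lower and 1 higher, beside 32.1% and 12.7% of all genes. After median-ratio scaling 2 were lower and 1 higher, beside 19.3% and 19.8% of all genes. The largest falls were those of Nlrc5, the transactivator of class I genes and of the immunoproteasome (-0.66, SE 0.15, adjusted p = 0.00293), Tapbp (tapasin, -0.57, adjusted p = 0.0145) and Pdia3 (a chaperone of the loading complex, -0.43, adjusted p = 0.00511). Of these Tapbp and Pdia3 were not called after median-ratio scaling (adjusted p = 0.0643 and 0.101). B2m, the light chain, was higher (0.27, SE 0.10, adjusted p = 0.0449), and Tap1 was not called (-0.32, SE 0.22, adjusted p = 0.243). Of 15 interferon response genes 9 were lower and 0 higher, beside 32.1% and 12.7% of all genes, with a median of -0.52. The list holds interferon-induced genes, such as Isg15 and Ifit1, as well as regulators of the response. After median-ratio scaling the median was -0.33 and 8 were lower, against 19.3% of all genes. Isg15 fell by 1.50 (SE 0.23, adjusted p = 0.000265), Irf7 by 1.06 (adjusted p = 0.00141) and Ifit1 by 1.05 (adjusted p = 0.00503). Genes of this list outside the 9 were not called, among them Irf1 (0.13, adjusted p = 0.433) and Irf8 (0.05, adjusted p = 0.848). Of the 15 genes 9 were thus called lower while the interferon-induced proteasome genes were not, and the difference between these sets was not tested.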

How the data were processed

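Liver RNA of 12 mice was compared, 6 of the PZH group and 6 of the control group, as the sample labels name them. The authors trimmed reads with Trimmomatic, mapped them to GRCm38 with HISAT2 and assembled transcripts with StringTie, and the deposited values are FPKM per transcript, not counts. Gene FPKM was the sum over protein-coding transcripts (GENCODE M21, 29876 of 29883 matched), with no filter on low values. Groups were compared with limma 3.58.1 in R 4.3.3 on log2(FPKM + 1), with a pseudocount of 1, and Benjamini-Hochberg adjustment over all 14188 genes or 29876 transcripts. Ratios were compared by two-sided exact permutation tests. On simulated data with 14188 genes, 54% of genes changed by 0.5 on the log2 scale and 95% of those changed by 1 were recovered, with 11 unchanged genes called. The simulation changed 100 genes at each size, all above a minimum control level. It used independent noise per gene and no shift common to a group, so these shares need not hold for the members. The best step gave whole fragments (within 0.01) for 9.79% to 14.9% of low values, so counts were not recovered, no interval for counting error could be given, and precision rests on the spread between mice.

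The members, gene lists and tests were chosen with earlier results of these data known. The genes named are the catalytic subunits, Psme1, Psme2, the 2 members with the largest called change in each direction of every other class, the 3 member transcripts with the smallest adjusted p, the 3 largest called changes of each list, and Nfe2l1, Pomp and Tap1. Some items are not reported here. Other members, list genes and markers were named after their values were seen. The analysis was repeated with a pseudocount of 0.1, with a filter on mean FPKM (at least 1), with median-ratio scaling, an equal sum per mouse, a mean-variance trend, the mouse number as a block, the most abundant transcript of each gene, and each mouse left out. Leaving out PZH 1 and control 6 together, and a pseudocount of 1 in the ratios, were added after seeing the data. The lncRNA table was not used here.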

Additional observations from a re-analysis of the deposited data

Results flagged for a closer look

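In 96 groups of 6 mice (the 44 genes, the 3 ratios and the immunoproteasome share, in each group), 22 had an end mouse whose gap to the next mouse, as a share of the group's range, exceeded Dixon's 95% critical value. Chance gives about 1 in 20 groups. The genes are not independent, since 1 mouse accounts for most of them.

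In 16 of the 22, PZH 1 was far above the other PZH mice on log2(FPKM + 1). The share of the range was 0.889 for Psmc2, 0.827 for Psmd6, 0.806 for Psma4, 0.804 for Psmc1, 0.794 for Psmb3, 0.790 for Psma2, 0.763 for Psmb7, 0.734 for Psma5, 0.717 for Psmc6, 0.714 for Psmd14, 0.698 for Psma1, 0.691 for Psmb5, 0.679 for Psmb6, 0.678 for Psmc3, 0.671 for Psma3 and 0.659 for Psma7. In 4, control 6 was far above the other control mice, with 0.739 for Psmc3, 0.732 for Psmb3, 0.728 for Psmb6 and 0.630 for Psmd3. Psmd7 was low in control 3 (0.736) and Psmd2 was low in PZH 2 (0.648).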

How the results depend on the processing

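With median-ratio scaling the genes called lower over the whole table numbered 2739 and those called higher 2807, against 4560 and 1798 from the deposited values, and 5 proteasome genes were lower against 22. Lower proteasome transcripts numbered 13, and 3 with median-ratio scaling, 8 with a pseudocount of 0.1, 22 with an equal sum of FPKM per mouse, 8 with the mouse number as a block and 23 without PZH 1 and control 6. With a mean FPKM of at least 1, 0 transcripts were higher, since the transcript concerned lies under that level. Leaving out each mouse gave 14 (without control 6) to 25 (without PZH 1) lower genes, 9 to 24 lower transcripts and a difference in the log2 ratio of Psmb8 to Psmb5 of 0.25 to 0.48.

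Median-ratio scaling turned the sign of Psma4 (0.17), Psma6 (0.10), Psmb1 (0.17), Psmb2 (0.057), Psmb7 (0.14), Psmb8 (0.059), Psmc6 (0.075), Psmd7 (0.0047), Psme1 (0.16), Psme2 (0.12) and Psme2b (0.16). The most abundant transcript alone did so for Psma4 (0.0086) and Psmd12 (0.0063). Leaving out single mice moved Psma4 between -0.11 and 0.0045, Psmb1 between -0.10 and 0.019, Psmb7 between -0.14 and 0.0046, Psmb8 between -0.18 and 0.019, Psmb9 between -0.056 and 0.15, Psme1 between -0.11 and 0.033, Psme2 between -0.26 and 0.14 and Psme2b between -0.092 and 0.041. The cause was not tested.

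Mice with the same number did not deviate together (correlations of -0.07 to 0.08), so the numbers were not taken as pairs. With the number as a block, 19 proteasome genes were lower, all 19 among the 22, and no ratio passed the test (exact permutation, adjusted p = 0.156 for each of the 3).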
